A study of Mus musculus with 20 samples.

Results

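Interferon regulatory factors (IRFs) were followed in RNA of macrophages sorted from the cranial dura mater. The members were the 7 IRF genes Irf1, Irf2, Irf3, Irf4, Irf5, Irf8 and Irf9, chosen by symbol among the 33243 genes of the count table, and all 7 passed the filter of 10 counts in total. Samples were dural CNS-associated macrophages (dCAMs), gated as CD45int CD11b+ CD206int-high, from Ccr2creERT2/+ R26tdT/tdT mice. In these mice Cre is expressed from the Ccr2 locus and tamoxifen switches on the red protein tdTomato (tdT) in the cells with Ccr2 expression during dosing. All 4 groups, the controls included, had first received BLZ945, an inhibitor of the receptor CSF1R, at 200 mg per kg for 7 days to deplete macrophages, and tamoxifen at 2 mg per day on the last of these days and again 2 and 4 days later. After 8 weeks, mice were injected with PBS (CTL) or with 2.5 mg per kg of lipopolysaccharide (LPS, a component of the bacterial wall), and tissue was taken 12 h later. Each of 5 CTL and 5 LPS mice gave a tdT+ and a tdT- library, so that the 4 groups (tdT- CTL, tdT+ CTL, tdT- LPS and tdT+ LPS) hold 5 libraries each. The age of the mice was not given in the labels. The label does not tell a tdT- cell that outlived BLZ945 from one whose precursor was not labelled.

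IRFs are transcription factors that share a DNA-binding domain and bind repeats of the letters GAAA. Irf3 and Irf7 are switched on by kinases downstream of pattern receptors and drive type I interferon, while Irf9 is the DNA-binding part of the complex ISGF3, which carries the signal of the interferon receptor to the nucleus. Irf1 is itself an early response gene of interferon and inflammatory signals, Irf2 often opposes it, Irf5 acts below MyD88 on cytokine genes, and Irf8 and Irf4 pair with PU.1 and set the identity of macrophages, dendritic cells and lymphocytes.

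Upstream sequences are shown for the IRFs in which a script found sites through which interferon and inflammatory signals are known to act. RefSeq promoter windows (build GRCm38.p6, 250 bases before to 50 bases after a start) were available for 7 of 7 members, in 10 windows. They were searched on both strands for the gamma-activated site TTCNNNGAA, for the core GAAANNGAAA of the interferon stimulated response element, and for the kappa-B site. These letters occurred in 8.30%, 3.44% and 8.46% of all 32851 windows, respectively. Of the 10 windows, 3 held a match, and no match overlapped another. The 250 bases before the first start of Irf1 (chr11:53769764-53770013, plus strand), of Irf2 (chr8:46739495-46739744, plus strand) and of Irf8 (chr8:120736108-120736357, plus strand) are printed with the matches in capitals.
Irf1: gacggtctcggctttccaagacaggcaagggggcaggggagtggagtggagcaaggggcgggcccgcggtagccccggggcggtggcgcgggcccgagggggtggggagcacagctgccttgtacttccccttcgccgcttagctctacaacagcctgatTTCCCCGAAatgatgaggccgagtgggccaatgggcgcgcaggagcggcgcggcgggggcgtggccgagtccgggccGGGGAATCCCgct
Irf2: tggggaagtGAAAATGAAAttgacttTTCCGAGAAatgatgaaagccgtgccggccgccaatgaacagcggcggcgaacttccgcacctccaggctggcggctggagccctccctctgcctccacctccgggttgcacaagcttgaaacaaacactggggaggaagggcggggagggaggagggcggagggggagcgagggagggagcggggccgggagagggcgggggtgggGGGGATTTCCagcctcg
Irf8: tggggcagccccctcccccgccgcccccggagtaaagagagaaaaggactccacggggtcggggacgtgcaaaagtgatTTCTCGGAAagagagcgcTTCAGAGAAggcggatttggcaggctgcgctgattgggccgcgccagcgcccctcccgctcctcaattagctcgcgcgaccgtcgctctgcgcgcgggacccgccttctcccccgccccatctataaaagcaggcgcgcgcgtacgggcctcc
In Irf1 the capitals mark a gamma-activated site 90 to 82 bases before the start and a kappa-B site 13 to 4 bases before it. In Irf2 they mark a response element core, a gamma-activated site and a kappa-B site, which begin 241, 224 and 17 bases before the start. In Irf8 they mark gamma-activated sites that begin 171 and 153 bases before the start. The second windows of Irf1 and Irf8, both windows of Irf9 and the windows of Irf3, Irf4 and Irf5 held none of these letters. A match describes the sequence and was not tested for binding.

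Library totals ran from 6017650 to 12208203 counts in CTL and from 12073566 to 18925908 in LPS mice, so depth went with treatment. Libraries held on average 7828 (tdT- CTL), 10366 (tdT+ CTL), 11457 (tdT- LPS) and 11490 (tdT+ LPS) genes with at least 10 counts. Of the values of the 5823 better expressed genes (mean log2 CPM no less than 4), 8.37% (tdT- CTL), 0.398% (tdT+ CTL), 0.0206% (tdT- LPS) and 0.0103% (tdT+ LPS) did not exceed 3 counts. The tdT- CTL libraries therefore stand apart, and every comparison with them rests on sparser libraries. The 10 macrophage markers summed to 6516 to 12590 CPM (tdT- CTL), 14376 to 16141 (tdT+ CTL), 7253 to 8170 (tdT- LPS) and 8451 to 10529 (tdT+ LPS), so that in tdT+ dCAMs they were lower under LPS without overlap, and none of them was at the floor of 3 counts in all libraries of a group. In bulk RNA, fewer cells of a type and less RNA per cell cannot be told apart.

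Levels of different IRFs were compared as CPM (the count scaled by library size and TMM factor) per kb of exonic length in GENCODE M21. Irf5 and Irf1 had the highest means in every group, Irf1 ahead of Irf5 in tdT+ CTL and behind it in the others. Irf5 stood at 170 ± 78.6 CPM per kb in tdT- CTL dCAMs, 107 ± 12.8 in tdT+ CTL dCAMs, 98.6 ± 25.6 in tdT- LPS dCAMs and 82.8 ± 16.5 in tdT+ LPS dCAMs (SD, n = 5 libraries). Irf1 stood at 103 ± 34.1, 113 ± 34.1, 49.0 ± 9.43 and 44.4 ± 14.6 CPM per kb in the same order. Thus Irf1 and Irf5 overlapped in both CTL groups and in tdT+ LPS libraries, whereas in tdT- LPS the lowest Irf5 library (63.9 CPM per kb) lay just above the highest Irf1 library (63.2). In tdT+ LPS dCAMs Irf1 (33.1 to 69.2) also overlapped Irf8 (33.1 to 49.7) and Irf9 (28.0 to 39.9). Irf8, Irf9 and Irf2 followed with group means between 23.0 and 45.5 CPM per kb, and their libraries overlapped in every group except that Irf2 (at most 27.3) stayed under Irf9 (at least 28.0) and Irf8 (at least 33.1) in tdT+ LPS and under Irf8 in tdT+ CTL dCAMs (at most 25.4 against at least 34.3). Irf3 came sixth with means between 8.99 and 15.9 CPM per kb. Irf4 came last, at no more than 2.55 CPM per kb on average.

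**Figure D1:**
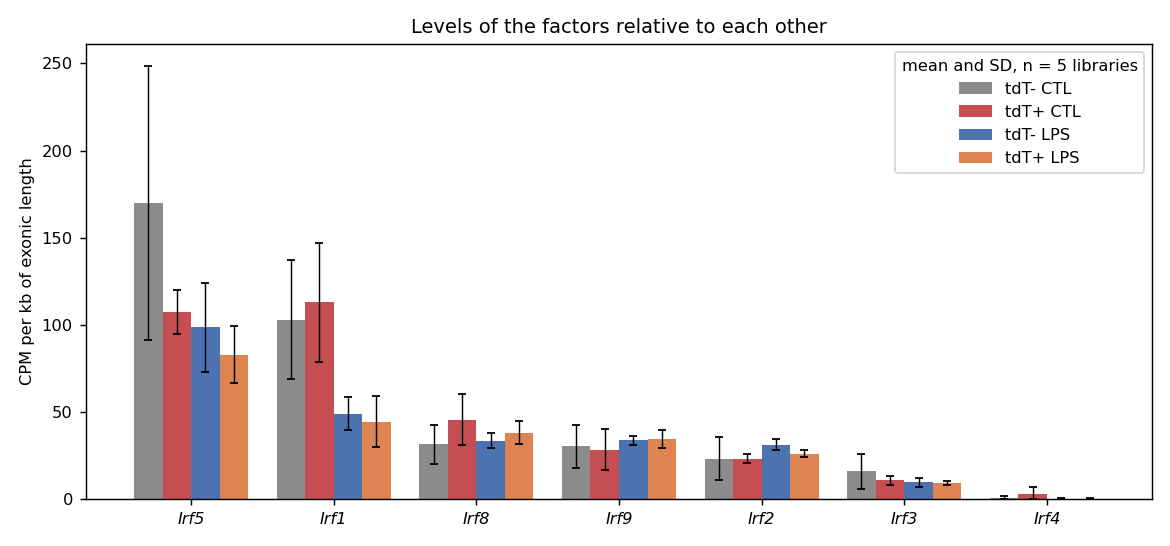
Bars give the mean CPM per kb of exonic length of each IRF in the 4 groups, and lines give the SD over 5 libraries (cut at 0). Irf5 and Irf1 stand highest, and Irf1 goes from above 100 CPM per kb in the CTL groups to under 50 in the LPS groups.

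Whether LPS changed IRF expression was asked in each population. Irf1 was the one member that passed the test, and it was lower under LPS in both populations. In tdT- CTL dCAMs Irf1 stood at 278 CPM (mouse 174), 454 (175), 624 (177), 348 (178) and 343 (179). In tdT- LPS dCAMs it stood at 164 CPM (mouse 54), 158 (56), 194 (59), 207 (60) and 251 (61). All 5 LPS libraries lay under all 5 CTL libraries. Irf1 was 2.10-fold lower (log2 fold change -1.07 ± 0.26, SE, 95% interval -1.62 to -0.52, adjusted p = 0.00938, edgeR). In tdT+ CTL dCAMs Irf1 stood at 299 CPM (mouse 174), 367 (175), 608 (177), 576 (178) and 394 (179). In tdT+ LPS dCAMs it stood at 165 CPM (mouse 54), 132 (56), 174 (59), 137 (60) and 275 (61). The groups again did not overlap, although the highest LPS library (mouse 61) lay just under the lowest CTL library (mouse 174). Irf1 was 2.54-fold lower (log2 fold change -1.35 ± 0.27, 95% interval -1.90 to -0.79, adjusted p = 0.00211). Mouse 61 held the highest Irf1 value of the LPS mice in both populations and mouse 174 the lowest of the CTL mice in both.

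Accordingly, 1 of 7 members was called lower and 0 higher in each population, against 4.85% of the 16632 genes called lower and 7.67% called higher in tdT- dCAMs and 2.83% lower and 3.79% higher in tdT+ dCAMs. Groups that do not overlap were found for 12.6% of all genes in tdT- and for 17.8% in tdT+ dCAMs, and among the members for Irf1 alone in each. The median log2 fold change of the 7 members was -0.74 in tdT- and -0.26 in tdT+ dCAMs, against 0.02 and 0.01 over all genes tested. These medians are the values of Irf3 and of Irf8, neither of which passed the test. They also count Irf4, close to the floor, at -2.30 and -4.19, so they do not show a fall of the members as a set. Leaving out mouse 54 ended the call of Irf1 in tdT- dCAMs (log2 fold change -0.97, adjusted p = 0.0537), and the adjusted p ranged from 0.000759 to 0.0537 over the 18 alternatives. In tdT+ dCAMs Irf1 was called under all 18 alternatives, with adjusted p from 1.14e-05 to 0.0129.

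**Figure D2:**
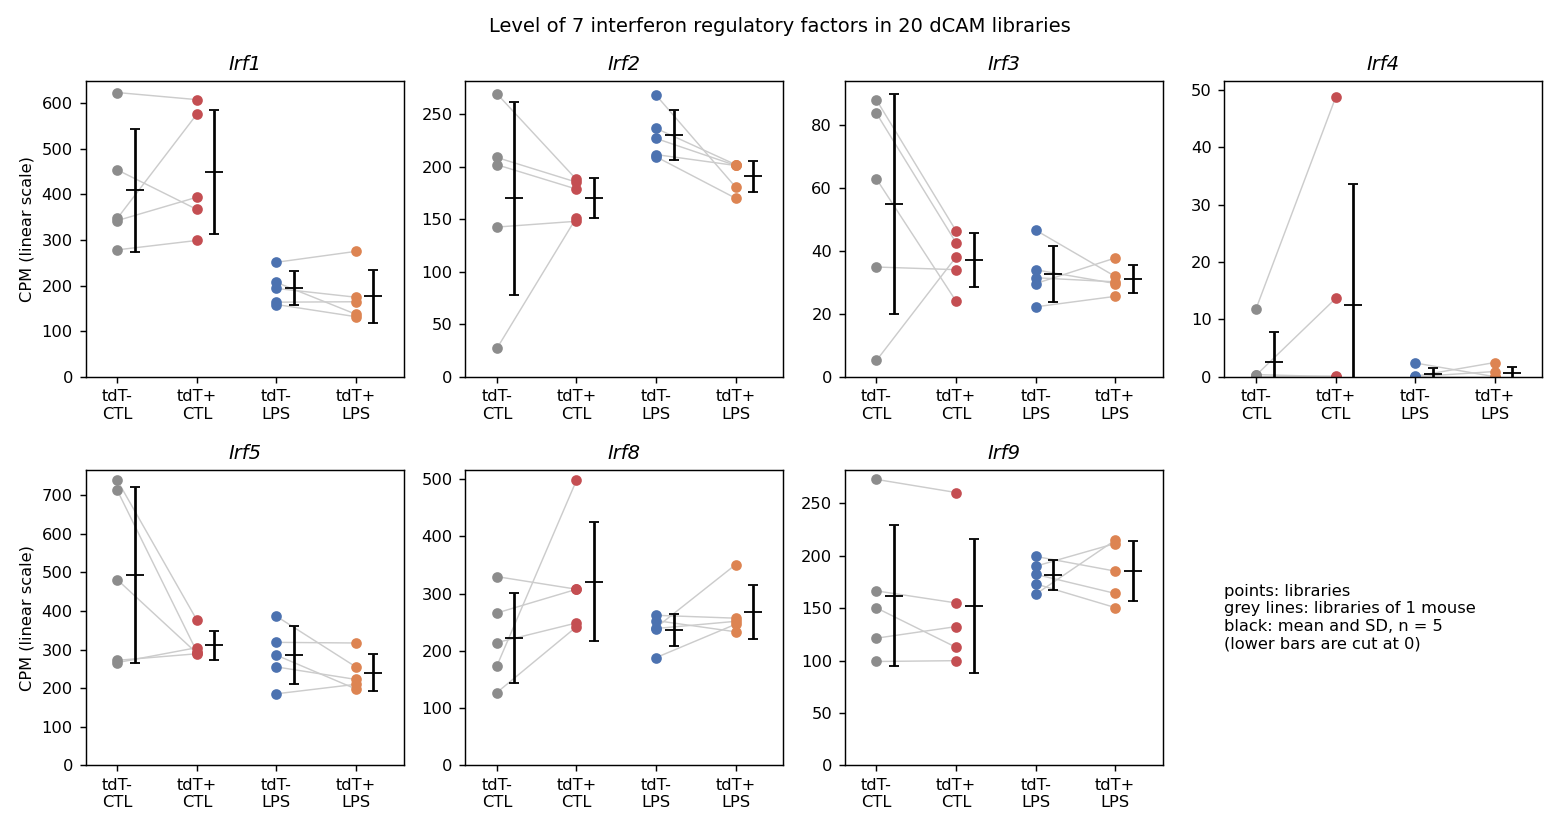
Each panel plots the CPM of an IRF in every library by group on a linear axis, with grey lines joining the libraries of a mouse and black marks for the mean and SD (n = 5). In the Irf1 panel all LPS points lie under all CTL points, and in the Irf4 panel nearly all points lie at or close to 0.

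**Figure D3:**
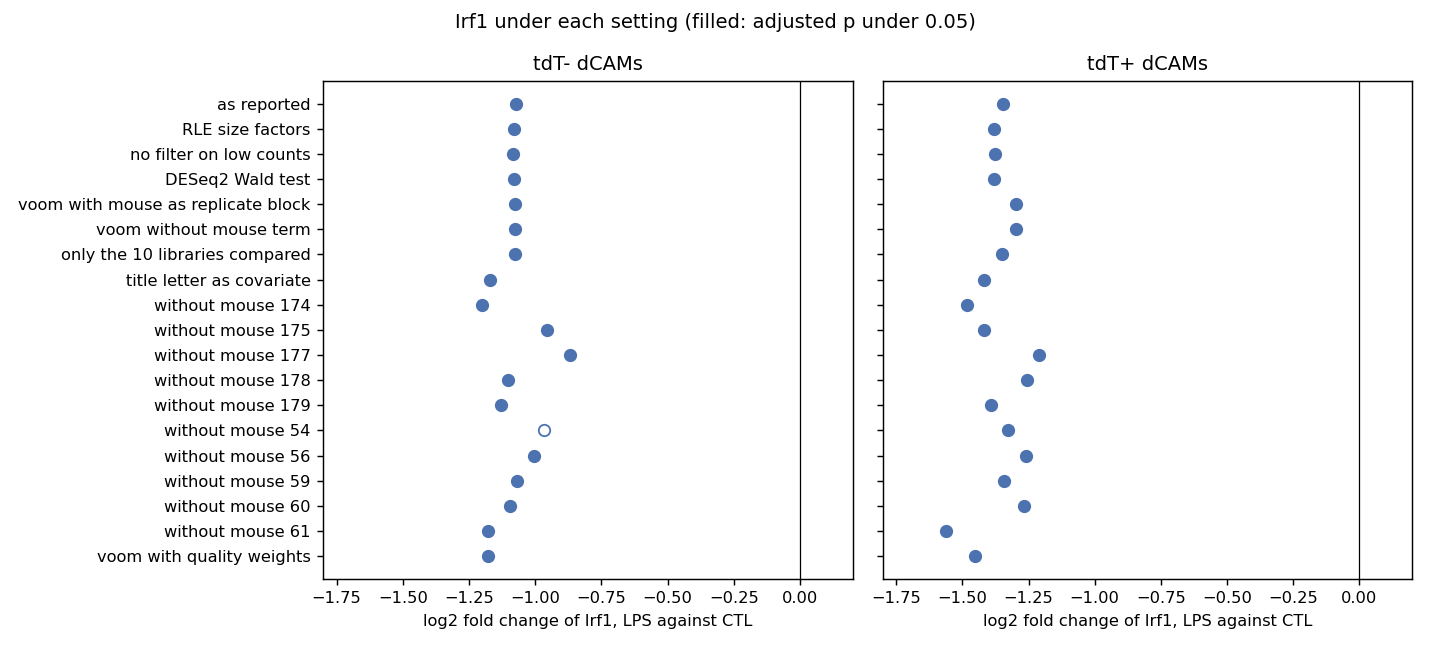
Points give the log2 fold change of Irf1, LPS against CTL, under each setting, in tdT- (left) and tdT+ dCAMs (right), filled where the adjusted p is under 0.05. The open point in tdT- dCAMs is the fit without mouse 54.

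Irf5, which drives cytokine genes below MyD88, varied widely among the tdT- CTL libraries. It stood at 738 CPM (mouse 174), 266 (175), 712 (177), 272 (178) and 481 (179) in tdT- CTL dCAMs. Under LPS, the tdT- libraries stood at 286 CPM (mouse 54), 186 (56), 255 (59), 319 (60) and 386 (61). The libraries of mice 175 and 178 thus lay within the LPS range, and those of mice 174, 177 and 179 lay above it. The log2 fold change was -0.79 ± 0.27 (95% interval -1.35 to -0.22), which did not pass the test (adjusted p = 0.0628). DESeq2 called Irf5 lower (log2 fold change -0.81, adjusted p = 0.0299), a test by which 10.6% of 13528 genes were called lower, and the adjusted p ranged from 0.0229 to 0.213 over the alternatives. In tdT+ dCAMs the means were 311 ± 37.1 CPM in CTL and 241 ± 47.8 in LPS (log2 fold change -0.37 ± 0.27, adjusted p = 0.533).

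Irf2 and Irf3 were sparse in single tdT- CTL libraries. Irf2, which competes with Irf1 for its sites, stood at 27.0 CPM (206 counts) in tdT- CTL mouse 179 and between 142 and 269 CPM in the other 4 libraries of that group, against 209 to 268 CPM in tdT- LPS dCAMs. Its log2 fold change was 0.44 ± 0.35 (adjusted p = 0.419) in tdT- and 0.17 ± 0.35 (adjusted p = 0.917) in tdT+ dCAMs. Irf3, the latent factor activated by TBK1, stood at 5.16 CPM (34 counts) in tdT- CTL mouse 174 and between 34.8 and 87.8 CPM in the other 4, against 22.2 to 46.5 CPM in tdT- LPS dCAMs. Its log2 fold change was -0.74 ± 0.51 (adjusted p = 0.342) in tdT- and -0.26 ± 0.51 (adjusted p = 0.906) in tdT+ dCAMs. The intervals, -1.81 to 0.32 and -1.32 to 0.80, allow changes of either sign for Irf3.

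Irf8 and Irf9 did not pass the test in either population. Irf8, required for the monocyte and macrophage lineage, averaged 222 ± 78.9 CPM in tdT- CTL and 237 ± 28.6 in tdT- LPS dCAMs (log2 fold change 0.09 ± 0.25, 95% interval -0.43 to 0.61, adjusted p = 0.858). In tdT+ dCAMs it averaged 321 ± 104 CPM in CTL and 268 ± 47.1 in LPS (log2 fold change -0.26 ± 0.25, adjusted p = 0.678). Irf9, the DNA-binding subunit of ISGF3, stood in tdT- CTL dCAMs at 273 CPM (mouse 174), 121 (175), 99.2 (177), 150 (178) and 167 (179). In tdT+ CTL dCAMs it stood at 260 CPM (mouse 174), 132 (175), 99.97 (177), 113 (178) and 155 (179). Mouse 174 held the highest Irf9 value of the CTL mice in both populations, above all 10 LPS libraries, which lay between 151 and 215 CPM. The log2 fold change of Irf9 was 0.17 ± 0.28 (adjusted p = 0.743) in tdT- and 0.29 ± 0.28 (adjusted p = 0.688) in tdT+ dCAMs. Without mouse 174 it was 0.41 (adjusted p = 0.175) and 0.55 (adjusted p = 0.132).

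Irf4, a factor of B cells, dendritic cells and alternatively activated macrophages, was close to the floor in most libraries. It had 108 counts (11.9 CPM) in tdT- CTL mouse 175 and 3 or fewer in the other 4 libraries of that group. In tdT+ CTL dCAMs it had 459 counts (48.7 CPM) in mouse 175, 178 counts (13.6 CPM) in mouse 179 and 1 or 0 in the others. Mouse 175 thus held the highest value in both populations. Among LPS mice, tdT- mouse 59 had 39 counts, tdT+ mice 56 and 54 had 30 and 12, and the other 7 libraries had 1 or 0. The log2 fold changes of -2.30 ± 2.21 (adjusted p = 0.517) and -4.19 ± 2.40 (adjusted p = 0.365) have intervals from -6.91 to 2.30 and from -9.19 to 0.80, so that no difference was detectable at this depth. B and plasma cell markers over the floor of 3 counts in at least 1 library (4 genes) summed to 30.7 to 114 CPM (tdT- CTL), 33.6 to 81.8 (tdT+ CTL), 12.9 to 31.1 (tdT- LPS) and 7.72 to 26.7 (tdT+ LPS), and Pax5 was at the floor in every library. The part of such cells in the values of Irf4 was not tested.

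**Figure D4:**
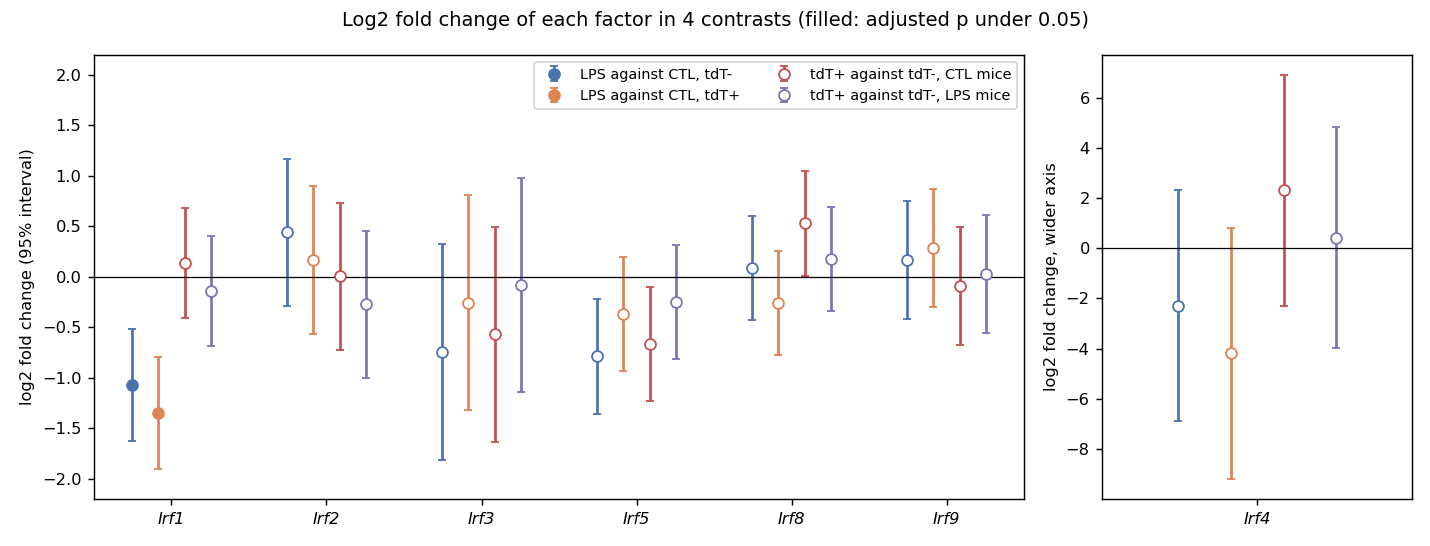
Points give the log2 fold change of each IRF with its 95% interval in 4 contrasts, filled where the adjusted p is under 0.05, with Irf4 on a wider axis. The filled points are those of Irf1, LPS against CTL, at -1.07 and -1.35.

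Whether tdT+ and tdT- dCAMs differed was asked within CTL and within LPS mice. In CTL mice 0 of 7 members were called by edgeR, where 4.68% of all genes were called in either direction. DESeq2 and voom called 0 as well, and 2 members (Irf5 and Irf8) had an unadjusted p under 0.05. Irf8 came nearest among the members that were higher in tdT+ dCAMs. It stood in tdT+ and tdT- dCAMs at 498 and 174 CPM in mouse 174, 308 and 330 in mouse 175, 249 and 214 in mouse 177, 242 and 127 in mouse 178, and 307 and 266 in mouse 179. It was higher in tdT+ dCAMs in 4 of 5 mice (log2 fold change 0.53 ± 0.25, 95% interval 0.01 to 1.05), but did not pass the test (adjusted p = 0.202). Irf5 was higher in the tdT- library of mice 174, 177 and 179 only (log2 fold change of tdT+ against tdT- -0.67 ± 0.27, adjusted p = 0.153). For the other 5 members the adjusted p was 0.56 or more.

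In LPS mice 0 of 7 members were called by edgeR, DESeq2 or voom, where 0.0301% of all genes were called by edgeR, and 0 members had an unadjusted p under 0.05. Irf2 was the member whose groups did not overlap, as was the case for 1.79% of all genes. It stood at 268, 209, 236, 211 and 227 CPM in the tdT- libraries of mice 54, 56, 59, 60 and 61. The tdT+ libraries of the same mice stood at 181, 170, 202, 201 and 201 CPM. Irf2 was thus lower in tdT+ dCAMs in 5 of 5 mice, by a log2 fold change of -0.27 ± 0.35 that did not pass the test (adjusted p = 1). The other members had log2 fold changes between -0.25 (Irf5) and 0.42 (Irf4) with an adjusted p of 1.

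The LPS effect itself did not pass a test of the difference between populations for any of the 7 members by edgeR, DESeq2 or voom, where 1.26% of all genes passed by edgeR, and 0 members had an unadjusted p under 0.05. The difference for Irf1, tdT+ minus tdT-, was -0.27 ± 0.37 (95% interval -1.05 to 0.50, adjusted p = 0.964). For Irf5 it was 0.42 ± 0.38 (95% interval -0.38 to 1.21, adjusted p = 0.834), and for Irf8 -0.35 ± 0.35 (95% interval -1.08 to 0.38, adjusted p = 0.874). These contrasts share their libraries with those above.

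Irf7, which was not among the members and is the interferon-induced amplifier of type I interferon, rose in both populations. In tdT- CTL dCAMs Irf7 stood at 463 CPM (mouse 174), 163 (175), 171 (177), 178 (178) and 64.1 (179), and in tdT- LPS dCAMs between 1404 and 2064 CPM. In tdT+ CTL dCAMs it stood at 473 CPM (mouse 174), 124 (175), 144 (177), 111 (178) and 142 (179), and in tdT+ LPS dCAMs between 1369 and 2124 CPM. It rose 8.30-fold in tdT- (log2 fold change 3.05 ± 0.44, adjusted p = 6.52e-05) and 8.67-fold in tdT+ dCAMs (log2 fold change 3.12 ± 0.44, adjusted p = 5.78e-05). As with Irf9, mouse 174 had the highest Irf7 of the CTL mice in both populations.

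Of 14 known ISGF3 target genes, 5 rose and 0 fell in tdT- dCAMs and 6 rose and 0 fell in tdT+ dCAMs. Over all genes, 7.67% were called higher and 4.85% lower in tdT-, and 3.79% and 2.83% in tdT+ dCAMs. The median log2 fold changes of the list were 1.62 and 1.63, against 0.02 and 0.01 over all genes tested. Of the 4 most abundant, Rtp4 and the antiviral enzyme gene Rsad2 rose in both populations, Rtp4 by a log2 fold change of 1.43 ± 0.28 in tdT- and 1.60 ± 0.28 in tdT+ dCAMs (adjusted p = 0.00168 and 0.00071). Oasl2 had log2 fold changes of 0.64 and 1.20 that did not pass the test (adjusted p = 0.402 and 0.18), and so did Oasl1 with 2.68 and 2.63 (adjusted p = 0.181 and 0.287). The others that rose, named after their values were seen, were Isg15 and Ifit1 in both populations, Cmpk2 in tdT- and Usp18 and Xaf1 in tdT+ dCAMs. In tdT- dCAMs 8 genes of the list were called without mouse 174, 2 with only the 10 libraries compared, 10 with mouse as a replicate block in voom and 1 in voom with quality weights. In tdT+ dCAMs 11 were called with only the 10 libraries compared and 12 in voom with quality weights.

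Of 11 known target genes of Irf1, 4 rose and 2 fell in each population. Over all genes, 7.67% were called higher and 4.85% lower in tdT-, and 3.79% and 2.83% in tdT+ dCAMs. The guanylate binding protein gene Gbp2 rose from 57.1 to 444 CPM in tdT- and from 73.9 to 477 CPM in tdT+ dCAMs (by 2.96 ± 0.63 and 2.69 ± 0.62 on the log2 scale, adjusted p = 0.00306 and 0.00871). Tap1, the peptide transporter of antigen presentation, rose by 0.97 ± 0.32 and 1.75 ± 0.32 on the log2 scale (adjusted p = 0.0494 and 0.00102). Psmb8, an immunoproteasome subunit, rose in tdT+ dCAMs (0.74 ± 0.22, adjusted p = 0.0431) and had a log2 fold change of 0.35 in tdT- dCAMs (adjusted p = 0.279), while Psmb9 passed in neither (adjusted p = 0.703 and 0.888). Named after their values were seen, Nos2 rose in both populations and Cxcl9 in tdT- dCAMs, while Ciita, the master regulator of MHC class II, and the cytokine gene Il15 fell in both. Nos2 had 1 count or none in each CTL library and averaged 114 CPM in tdT- LPS and 90.6 CPM in tdT+ LPS dCAMs. Il15 fell from 45.7 to 7.65 CPM in tdT- and from 43.6 to 6.53 CPM in tdT+ dCAMs (adjusted p = 0.00547 and 0.00515). Within this list, genes thus went both with and against the direction of Irf1. In tdT- dCAMs 3 genes of the list were called in place of 6 both with only the 10 libraries compared and in voom with quality weights.

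**Figure D5:**
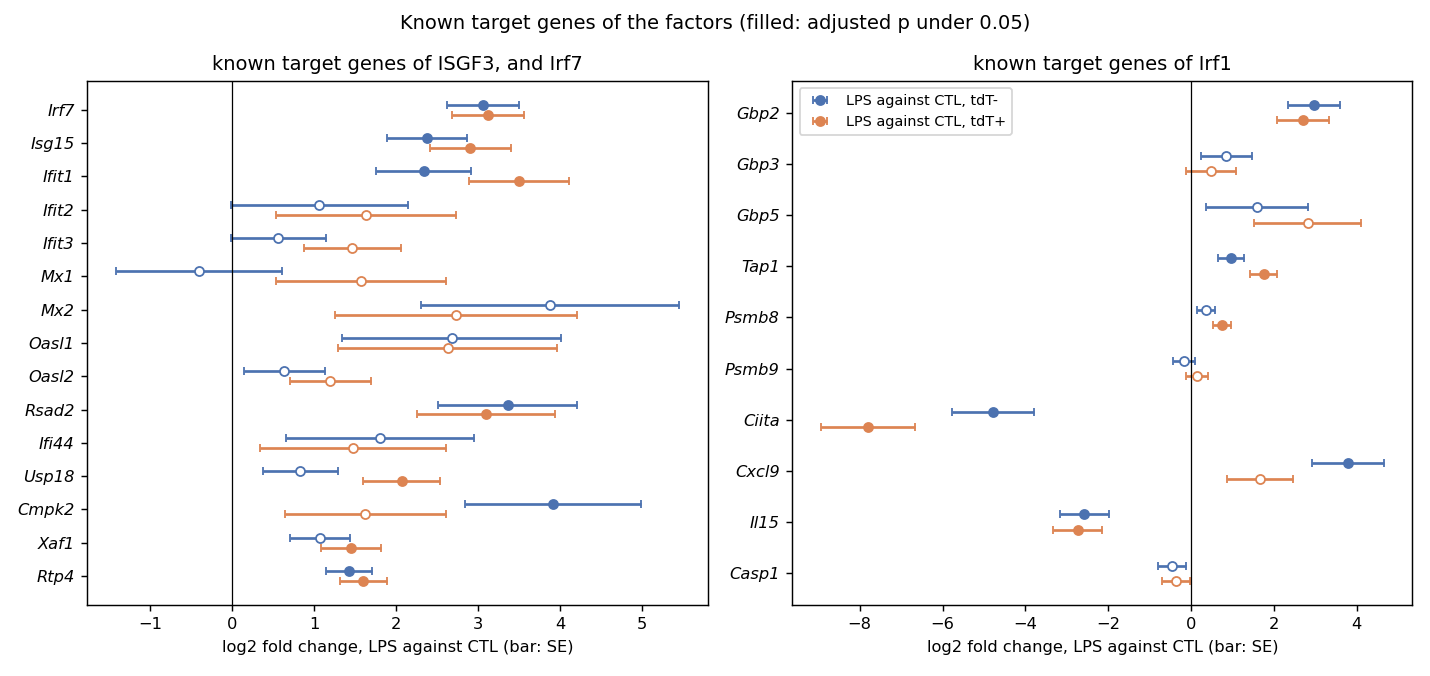
Points give the log2 fold change, LPS against CTL, with its SE for Irf7 and the known ISGF3 targets (left) and the known Irf1 targets (right), filled where the adjusted p is under 0.05. Nos2 is not drawn because its CTL libraries were at or under the floor, and the filled points on the left all lie above 0.

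Of 19 upstream genes, 1 rose and 2 fell in each population, against the 7.67% and 3.79% of all genes called higher and the 4.85% and 2.83% called lower in tdT- and tdT+ dCAMs. Ikbke, a kinase of Irf3 and Irf7, rose from 4.02 to 328 CPM in tdT- and from 0.739 to 412 CPM in tdT+ dCAMs (adjusted p = 0.00476 and 0.000735). Its CTL means rest on mouse 174, with 131 counts in the tdT- and 21 in the tdT+ library. The other CTL libraries had 2 or fewer, under the floor. Sting1, the adaptor of cytosolic DNA sensing, fell by 1.94 ± 0.33 in tdT- and by 1.39 ± 0.33 in tdT+ dCAMs on the log2 scale (adjusted p = 0.000401 and 0.00996). Slc15a4, a transporter needed for Irf5 signalling and named after its values were seen, fell in both (adjusted p = 0.0377 and 0.0443). Myd88 (adjusted p = 0.7 and 0.285) and Rigi (adjusted p = 0.568 and 0.506) did not pass the test.

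Of 7 DNA-binding partners, Spi1, which encodes PU.1, rose in tdT- dCAMs from 325 to 540 CPM (by 0.73 ± 0.18 on the log2 scale, adjusted p = 0.00768), and had 423 and 513 CPM in tdT+ CTL and LPS dCAMs (adjusted p = 0.431). Among all genes, 7.67% were called higher and 4.85% lower in tdT-, and 3.79% and 2.83% in tdT+ dCAMs. Stat2 had log2 fold changes of 1.45 and 1.34 (adjusted p = 0.181 and 0.326), while Batf had -0.09 and 0.28 (adjusted p = 0.922 and 0.816). None of the 3 cofactors Irf2bp1, Irf2bp2 and Irf2bpl passed in either population. Of the 8 interferon, receptor and kinase genes tested, the interferon gamma receptor gene Ifngr1 fell in both populations, from 779 to 470 CPM in tdT- and from 960.2 to 503 CPM in tdT+ dCAMs (adjusted p = 0.00208 and 0.00022). Ifnar1, Ifngr2 and Jak1 did not pass in either. Ifng had no count in any library and was not tested, and Ifnb1 had counts in 1 tdT+ CTL library alone.

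Of 5 known Irf5 targets, 1 passed in tdT- and 0 in tdT+ dCAMs. For this list and the next, the shares of all genes were 7.67% higher and 4.85% lower in tdT- dCAMs. They were 3.79% and 2.83% in tdT+ dCAMs. Tnf fell in tdT- dCAMs by 1.64 ± 0.36 on the log2 scale (adjusted p = 0.00391) and had a log2 fold change of -0.84 in tdT+ dCAMs (adjusted p = 0.192). Il6 averaged 32.6 and 177 CPM in tdT- and 14.9 and 228 CPM in tdT+ CTL and LPS dCAMs (adjusted p = 0.17 and 0.072). Of 5 known Irf4 targets, 1 rose and 2 fell in tdT- and 1 rose and 1 fell in tdT+ dCAMs. Arg1 rose from 0 to 191 CPM in tdT- and from 0.295 to 132 CPM in tdT+ dCAMs, and Mrc1, which encodes CD206 of the sorting gate, fell in both (log2 fold change -1.14 ± 0.24 and -1.40 ± 0.24, adjusted p = 0.00259 and 0.000459). Kdm6b fell in tdT- dCAMs (adjusted p = 0.0115) and did not pass in tdT+ dCAMs (adjusted p = 0.593). Between tdT+ and tdT- dCAMs, Mrc1 was the one gene of these lists that passed, higher in tdT+ dCAMs of CTL mice (log2 fold change 0.98 ± 0.24, adjusted p = 0.0193). In that contrast 4.68% of all genes were called in either direction.

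Markers of other cell types, some of which express Irf8, Irf4 or Irf5, differed between the groups. The 6 conventional dendritic cell markers summed to 618 to 3329 CPM (tdT- CTL), 51.2 to 77.1 (tdT+ CTL), 262 to 638 (tdT- LPS) and 11.4 to 52.6 (tdT+ LPS), with Xcr1 at the floor in every group. The 4 plasmacytoid dendritic cell markers summed to 140 to 290 CPM (tdT- CTL), 359 to 556 (tdT+ CTL), 61.4 to 70.2 (tdT- LPS) and 65.0 to 105 (tdT+ LPS). The 6 neutrophil markers summed to 46.7 to 181 CPM (tdT- CTL), 83.8 to 195 (tdT+ CTL), 434 to 1087 (tdT- LPS) and 446 to 956 (tdT+ LPS). Ly6g and Mmp8 were at the floor in both CTL groups, and Ly6g was at the floor in tdT+ LPS dCAMs as well. The 5 monocyte markers summed to 548 to 1095 CPM (tdT- CTL), 160 to 467 (tdT+ CTL), 278 to 727 (tdT- LPS) and 136 to 292 (tdT+ LPS). The 4 microglia markers summed to 132 to 547 CPM (tdT- CTL), 296 to 519 (tdT+ CTL), 613 to 834 (tdT- LPS) and 573 to 891 (tdT+ LPS). T or NK cell, mast cell and endothelial markers summed to at most 129, 125 and 63.1 CPM in any library, and fibroblast markers to 10.6 to 3786 CPM in tdT- CTL and 51.7 to 327 CPM in the other groups. The part of all these cells in the values of the IRFs was not tested.

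The genes most like each IRF were found by the root mean square difference of standardised log2 CPM over 20 libraries, among 5823 genes. For Irf1 these were Atf3 (0.42), Selenop (0.47) and Igf1 (0.48), of which Atf3 is an early response factor. For Irf2 they were Pdcd6, Grpel1 and Bccip (0.28 each). For Irf3 they were Mfsd14a (0.40), Yipf4 (0.42) and Tmed3 (0.43), and for Irf5 Srp14 (0.55), Pkig (0.57) and Cdc123 (0.59). The nearest genes of Irf9, Letm1 (0.63), Tor3a (0.66) and the ISGF3 target Ifit3 (0.66), and of Irf8, Stau1, G530011O06Rik and Gatd1 (0.69 each), were less alike. Irf4 was too low to enter this comparison. Libraries share depth and treatment across genes, so that these values describe likeness only.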

How the data were processed

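RNA was measured in 20 libraries of sorted dCAMs from 10 mice. The authors deposited raw counts per gene, made with bcl2fastq 2.20, STAR 2.7.11a and featureCounts 2.0.6 (per the submitters' processing notes, which also name DESeq2 1.46.0) from a SMART-Seq kit without molecular identifiers, so PCR copies are not independent molecules. The SE and intervals given here include the spread between mice. The methods leave the genome build of the table unclear, so exonic lengths (GENCODE M21) and RefSeq promoters (GRCm38.p6) were matched by symbol.

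Groups came from the labels. Genes with 10 or more counts in total (16632) were scaled by TMM and fitted over all 20 libraries with the quasi-likelihood test of edgeR 4.0.16 in R 4.3.3, 1 mean per group. A gene was called at a Benjamini-Hochberg adjusted p under 0.05 over all genes tested. The SE is the log2 fold change over the square root of F, and a count of 3 was the floor. All adjusted p-values are from edgeR unless DESeq2 1.42.0 or limma 3.58.1 (voom) is named. The 5 mice of a group are separate animals. No 2 libraries were near duplicates (largest correlation 0.963).

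Members and lists were chosen with earlier results of these data known. Named were all members, the 4 most abundant genes of each list, and the 3 genes most like each member. The mouse pairs the tdT+ and tdT- library, since both came from 1 dura. Deviations of paired libraries from their group means correlated at -0.0046 to 0.0461 in CTL and 0.228 to 0.449 in LPS mice. Alternatives were RLE scaling, no filter, DESeq2, mouse as a replicate block, only the libraries compared, the letter F or M that opens the titles (3 F mice in CTL, 2 in LPS), and leaving out each mouse.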

Additional observations from a re-analysis of the deposited data

Results flagged for a closer look

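In 6 of 28 groups of 5 libraries a library stood apart from the others of its group, beyond the critical value of Dixon's test. No chance rate is set beside this count. The test assumes normal values, Irf4 had 3 or fewer counts in most libraries, and the members share their libraries. For Irf4 these were mouse 175 in tdT- CTL (11.9 CPM) and in tdT+ CTL dCAMs (48.7 CPM) and mouse 59 in tdT- LPS dCAMs (2.40 CPM). For Irf5 it was mouse 174 in tdT+ CTL dCAMs (377 CPM, the others 289 to 305). For Irf8 it was mouse 174 in tdT+ CTL dCAMs (498 CPM, the others 242 to 308) and mouse 61 in tdT+ LPS dCAMs (350.5 CPM, the others 233 to 257). Both Irf8 libraries were the highest of their group.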

How the results depend on the processing

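Of the counts of members called, 93 alternatives kept the reported count and 4 moved it, all for LPS against CTL in tdT- dCAMs. DESeq2 called 2 (Irf1 and Irf5), and leaving out a mouse gave 0 to 2, with 0 without mouse 54 and 2 without mouse 175 or 178. Irf5 was then called as well (adjusted p = 0.0304 and 0.0229). Of the log2 fold changes of members, 623 kept direction and call, 3 gained a call, 1 lost it and 17 changed sign, none of which was called. With the title letter, Irf4 went to 1.75 for LPS in tdT- dCAMs and to -3.90 for tdT+ against tdT- dCAMs in LPS mice. In voom with quality weights, added after the data were seen, Irf4 went to -0.15 for tdT+ against tdT- dCAMs in CTL mice and to 0.98 for the difference of LPS effects, and Irf3 to 0.0017 for tdT+ against tdT- dCAMs in LPS mice. With mouse as a replicate block in edgeR, Irf4 went to 0.31 for the difference of LPS effects. The cause of these changes was not tested.

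Leaving out each mouse in turn gave Irf4 log2 fold changes of -6.37 to 1.69 and Irf8 of -0.047 to 0.343 for LPS in tdT- dCAMs. For tdT+ against tdT- dCAMs it gave Irf2 -0.23 to 0.26 and Irf9 -0.107 to 0.045 in CTL mice, and Irf4 -1.38 to 4.81, Irf3 -0.175 to 0.070 and Irf9 -0.066 to 0.078 in LPS mice. For the difference of LPS effects it gave Irf4 -4.09 to 2.49. With mouse as a replicate block (consensus correlation 0.0413), voom gave Irf1 -1.08 in tdT- and -1.30 in tdT+ dCAMs, and no call of a member changed. The blocked edgeR fit covered only tdT+ against tdT- dCAMs and the difference of LPS effects, where no member had been called. It called none there either, and it could not test the LPS calls of Irf1. Voom, also run without that term after the data were seen, moved the median log2 fold change of all genes from 0.02 to 0.76 for LPS in tdT- dCAMs, from -0.005 to 0.54 for tdT+ against tdT- dCAMs in CTL mice and from 0.03 to -0.61 for the difference of LPS effects. Against these medians Irf1 lay lower still under LPS, and Irf8, at 0.49 for tdT+ against tdT- dCAMs in CTL mice, lay below the median of all genes. The blocked edgeR fit moved the median in CTL mice to 0.54 as well, with Irf8 at 0.55. Over the 5823 better expressed genes, which include Irf8, that median was 0.34 in the blocked edgeR fit. It was 0.55 in voom with mouse as a replicate block. The sparser tdT- CTL libraries limit every comparison with that group, and Irf4 was too low to compare.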
